A study of Oryza sativa with 8 samples.

Results

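In rice flag leaves, 109 loci averaged at least 3 times the wild type mean in libraries labelled GSK2-RNAi and again in libraries labelled GSK2-RNAi oswrky53. They were chosen by measured values: the transcript values of each locus were summed, and a locus was kept when its wild type mean was at least 10 normalized counts, its mean in each line was at least 3 times that, and the lowest of the 6 libraries of both lines lay above both wild type libraries. A normalized count is a read count rescaled between libraries by the submitters, so it is not a count of molecules. The deposited table covers 32166 loci, of which 23364 had a wild type mean of at least 10, and the 109 members are 0.467% of these. One further locus met the conditions and was left out by the rule itself. The condition on the libraries labelled GSK2-RNAi oswrky53 was met by 162 loci and that on the libraries labelled GSK2-RNAi by 971, so the loci meeting both were 67.9% of the shorter list and 11.3% of the longer one. Both lines entered the selection, so their distance from the wild type is a description here and supports nothing. Every member also passed the filter used for testing, which its selection ensured.

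The series compared leaf messenger RNA of cultivar ZH11 in 3 genotypes. Every sample title carries the tag CK. The genotype labelled GSK2-RNAi oswrky53 joins an RNA interference construct named for GSK2 with an oswrky53 mutation and has 3 libraries. The genotype labelled GSK2-RNAi carries the construct alone and also has 3, and the wild type has 2, numbered 1 and 3. Sample labels put the harvest of all plants at heading in a growth chamber, whereas the series text puts it at booting. The sources used here give neither the promoter of the construct, nor the kind of mutation, nor whether libraries came from separate plants, so p-values measure only the spread between these samples.

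Brassinosteroids are plant steroid hormones that are perceived at the cell surface by the receptor kinase BRI1. GSK2 is a GSK3-like kinase that restrains the pathway by phosphorylating its downstream factors, and WRKY53 is a transcription factor of the family that binds W-box elements and takes part in rice immunity and growth. A locus that stays high when WRKY53 is mutated in the RNA interference background is one whose level in the line did not return to that of the wild type.

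In units of 1e6, library totals lay between 20.87 and 28.03 normalized counts, or about 19.9 to 38.7 reads if the spacing of the low values is taken as 1 read. The 100 most abundant loci held from 28.5% to 31.7% of all normalized counts in libraries labelled GSK2-RNAi oswrky53 and in the wild type, and from 21.3% to 22.6% in libraries labelled GSK2-RNAi. GSK2 (Os05g0207500) was at 182, 219 and 155 normalized counts in libraries labelled GSK2-RNAi oswrky53, at 795, 741 and 820 in libraries labelled GSK2-RNAi, and at 105 and 98.5 in the wild type. Its level therefore goes against the interference label, so each group is called by its label from here on. Whether these values hold reads of the construct itself, or whether labels were exchanged, was not tested, and either would change what a difference between the lines means. Between the lines GSK2 was lower in libraries labelled GSK2-RNAi oswrky53 by 2.09 ± 0.15 in log2 terms (SE, limma adjusted p = 0.00067), so the mutation and the level at the GSK2 locus cannot be told apart in any difference between the lines below. WRKY53 (Os05g0343400, a pair of name and identifier that was not checked) was at 11611, 7686 and 5971 normalized counts in libraries labelled GSK2-RNAi oswrky53, at 7396, 7843 and 8560 in libraries labelled GSK2-RNAi and at 3992 and 3209 in the wild type. Markers were set beside the tissue label. The 6 leaf blade genes together held from 3.83% to 5.08% of each library labelled GSK2-RNAi oswrky53. They held from 2.59% to 3.14% of each labelled GSK2-RNAi and from 4.30% to 4.86% of each wild type library. Of 7 floral genes, MADS7 was listed at 0 in every library, and the 7 summed to 196 to 580 normalized counts in libraries labelled GSK2-RNAi oswrky53, 128 to 260 in libraries labelled GSK2-RNAi and 76.0 to 233 in the wild type. The 3 pollen and anther genes summed to 117 to 326 normalized counts in libraries labelled GSK2-RNAi oswrky53, to 142 to 561 in libraries labelled GSK2-RNAi and to 161 to 415 in the wild type. The 4 genes of dividing cells summed to 289 to 369 in libraries labelled GSK2-RNAi oswrky53, to 253 to 267 in libraries labelled GSK2-RNAi and to 182 to 305 in the wild type. The 1 root marker in the table, LSI1, was at 286 to 322 in libraries labelled GSK2-RNAi oswrky53 and at 256 to 400 in libraries labelled GSK2-RNAi. In the wild type LSI1 was at 306 to 333, so it was not absent from any library. The part of any of these markers in the members' values was not tested.

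The members spanned a wide range of levels. In the libraries labelled GSK2-RNAi oswrky53 the median member averaged 164 normalized counts, in libraries labelled GSK2-RNAi 407, and in the wild type 31.4. Of the 109, 28 had a wild type mean under 20, where a ratio rests on few reads, and 23 had a wild type mean of at least 100. The median ratio to the wild type was 3.997 in libraries labelled GSK2-RNAi oswrky53 and 9.68 in libraries labelled GSK2-RNAi. Most members lay close above the selection threshold in the line with the oswrky53 mutation and far above it in the line without. Just inside the threshold were Os01g0273800, Os04g0468000 and Os01g0674400, whose ratios in libraries labelled GSK2-RNAi oswrky53 were 3.00, 3.01 and 3.03. Just outside it were Os03g0429000 at 2.998 and the transcription factor gene WRKY71 (Os02g0181300) at 2.99 in the same libraries, and Os07g0687900 at 2.98 in libraries labelled GSK2-RNAi.

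**Figure D1:**
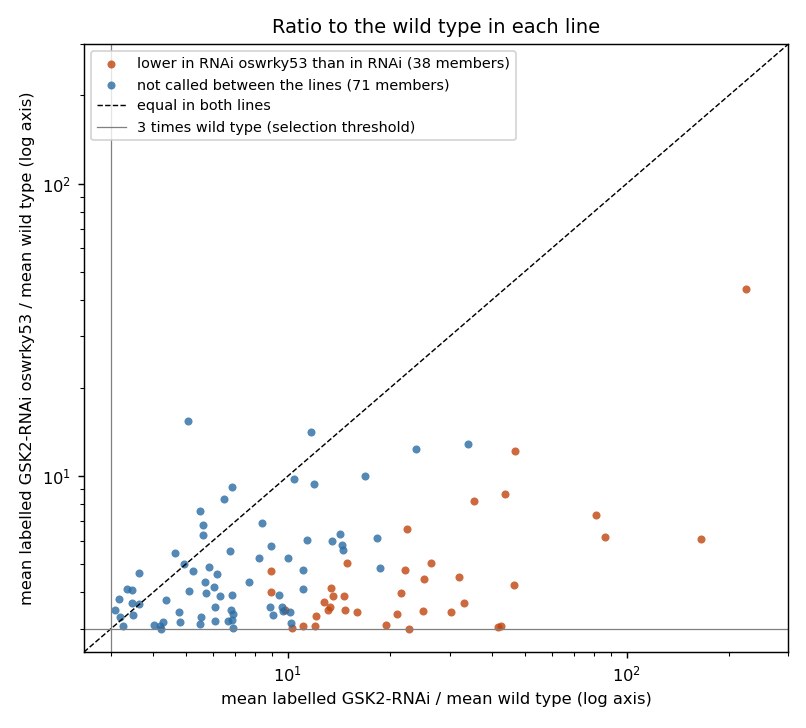
Each point is 1 of the 109 members, with the ratio of its mean in libraries labelled GSK2-RNAi to the wild type mean on the horizontal axis and the ratio for those labelled GSK2-RNAi oswrky53 on the vertical axis (both log axes). Grey lines mark the selection threshold of 3, and 92 of the 109 points lie below the dashed line of equal values.

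By selection, every member kept at least part of its rise above the wild type, so the shares kept are a description. With the mean difference between the libraries labelled GSK2-RNAi and the wild type taken as 100%, the median member kept 39.9% of it in libraries labelled GSK2-RNAi oswrky53. At least 80% was kept by 23 members, of which 17 kept 100% or more, whereas 22 kept under 20%. In 92 of 109 members the mean was lower in libraries labelled GSK2-RNAi oswrky53 than in libraries labelled GSK2-RNAi, and in 17 it was higher. The question asked of each member is then whether the lines differ from each other by more than their libraries do.

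Of the 109 members, 38 were lower in libraries labelled GSK2-RNAi oswrky53 than in libraries labelled GSK2-RNAi, against 7.70% of the 25325 loci tested, and 0 were higher, against 8.78% of the loci tested (limma, Benjamini-Hochberg adjusted p under 0.05). The other 71 were not called. At an unadjusted p under 0.05 the counts were 60 lower and 2 higher. The share of all loci at that threshold is not given here, so nothing is read from these counts. The median log2 difference was -1.14 over the members and -0.01 over all loci tested. All 3 libraries labelled GSK2-RNAi oswrky53 lay below all 3 labelled GSK2-RNAi in 51 members (46.8%), against 19.1% of the loci tested. They lay above them in 2 members, against 20% of the loci tested. Among the 861 loci that met the selection condition in libraries labelled GSK2-RNAi alone, they lay below in 80.02%. That share was above the 46.8% of the members, but those 861 had failed the condition in libraries labelled GSK2-RNAi oswrky53. Failing it favours low values there, so nothing is read from this order. Among the 52 that met it in libraries labelled GSK2-RNAi oswrky53 alone, the share was 0%, a value that the selection fixed. A locus with all these libraries below those labelled GSK2-RNAi would have met the condition in both lines. Each list was chosen from the same libraries, the members by high values in both lines, so these shares are not independent of the selection. The count of 38 was 58 with libraries scaled to equal totals, which moved the median of all loci to -0.32. That scaling also raised the number of all loci called lower, from 1949 to 6193. The member count was 23 without GSK2-RNAi replicate 3, where the number of all loci called lower is not given here. Being uncalled does not show that a member was equal in both lines: in 12 of the 71 the 95% interval of the log2 difference stayed within 1 of 0. In bulk leaf RNA, fewer cells that express a locus and less RNA per cell cannot be told apart.

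**Figure D2:**
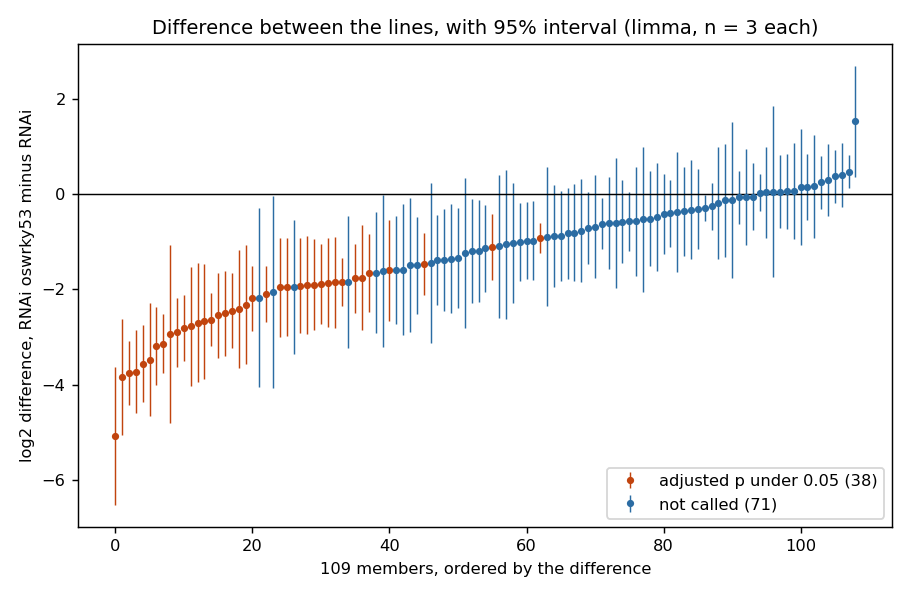
Log2 difference between the lines (libraries labelled GSK2-RNAi oswrky53 minus those labelled GSK2-RNAi, n = 3 each) for the 109 members in order, with the 95% interval from limma as bars. The 38 members called lower are orange, most of them to the left, the 71 not called are blue, and the differences run from -5.08 to 1.53.

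For comparison with the values that chose them, 18 members were called higher in libraries labelled GSK2-RNAi oswrky53 than in the wild type, where 0.308% of all loci tested were, and 103 were called higher in libraries labelled GSK2-RNAi than in the wild type, where 13.3% were (limma, adjusted p under 0.05). These counts come from the values that made the selection, so they support nothing further. With 18 called, most members did not pass this test in libraries labelled GSK2-RNAi oswrky53, although the selection had asked for high means there.

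Only 7 members carry a name that could be checked against the reference table, and the other 102 are given by their identifier. The 7 names belong to hormone and defence lipid metabolism, ion transport, cell wall defence and calcium sensing.

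Both lipoxygenase members lie next to each other on chromosome 8. CM-LOX1 (Os08g0508800) and CM-LOX2 (Os08g0509100) encode lipoxygenases, which oxygenate fatty acids at the entry to jasmonate and related oxylipins. CM-LOX2 was at 3714, 2494 and 1574 normalized counts in libraries labelled GSK2-RNAi oswrky53, at 2173, 2002 and 2434 in libraries labelled GSK2-RNAi and at 487 and 787 in the wild type. The lines overlapped, and their log2 difference was 0.15 ± 0.30 (SE, 95% interval -0.54 to 0.84, limma adjusted p = 0.766), a direction that reverses with equal totals. CM-LOX1 was at 2997, 266 and 183 normalized counts in libraries labelled GSK2-RNAi oswrky53, at 2320, 1975 and 2323 in libraries labelled GSK2-RNAi and at 82.0 and 103 in the wild type. A single library, GSK2-RNAi oswrky53 replicate 1, stood at the level of the libraries labelled GSK2-RNAi, while the other two of its group stood nearer to the wild type. The log2 difference of CM-LOX1 between the lines was -2.06 ± 0.88 (SE, limma adjusted p = 0.147). Without GSK2-RNAi oswrky53 replicate 1 it was -3.31 and called lower (limma adjusted p = 0.00118). Each locus is a separate case although the genes are neighbours of 1 family, and the sharing of reads between them was not tested.

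The list of jasmonate synthesis and signalling genes, to which both belong, had 19 loci tested. Between the lines 0 of them rose and 1 fell in libraries labelled GSK2-RNAi oswrky53, where 8.78% of all loci tested rose and 7.70% fell, so a count of 1 is near the background, and the list's median log2 difference was -0.19. The gene that fell was JAZ12 (Os10g0392400), a repressor of jasmonate responses, which averaged 34.7 normalized counts in libraries labelled GSK2-RNAi oswrky53 and 84.0 in libraries labelled GSK2-RNAi (log2 difference -1.21, limma adjusted p = 0.0276). The call was lost without replicate 1 or 2 labelled GSK2-RNAi and without any 1 of the 3 libraries labelled GSK2-RNAi oswrky53 (adjusted p from 0.0555 to 0.0925). AOS2 (Os03g0225900), an allene oxide synthase gene that failed the selection because its wild type mean was under 10, was at 237, 4.36 and 31.4 in libraries labelled GSK2-RNAi oswrky53 and at 189, 498 and 318 in libraries labelled GSK2-RNAi. As for CM-LOX1, replicate 1 was the highest library of the line with the oswrky53 mutation.

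Cht10 (Os01g0287600), a chitinase of the kind that cuts fungal cell walls, had the smallest log2 difference between the lines among the 7 named members. It was at 261, 178 and 164 normalized counts in libraries labelled GSK2-RNAi oswrky53, at 171, 162 and 309 in libraries labelled GSK2-RNAi and at 79.0 and 52.3 in the wild type. The log2 difference was -0.06 ± 0.31 (SE, 95% interval -0.76 to 0.64, limma adjusted p = 0.922), which leaves room for a change of either sign. Of 5 chitinase loci tested, 2 were lower in libraries labelled GSK2-RNAi oswrky53, against 7.70% of all loci tested, and 0 were higher, against 8.78%. These were Cht1 (Os06g0726200), at 274 against 1472 normalized counts in libraries labelled GSK2-RNAi (limma adjusted p = 0.0199), and Cht3 (Os06g0726100), at 4.63 against 204 (limma adjusted p = 0.00755). The call of Cht1 was lost without replicate 2 or 3 labelled GSK2-RNAi or replicate 1 or 2 labelled GSK2-RNAi oswrky53 (adjusted p from 0.0509 to 0.0663). Neither of these was a member.

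PHT1-1 (Os03g0150600), a phosphate transporter, was at 759, 979 and 676 normalized counts in libraries labelled GSK2-RNAi oswrky53, at 3449, 2102 and 3238 in libraries labelled GSK2-RNAi and at 213 and 270 in the wild type. The 3 groups did not overlap, with the line that carries the oswrky53 mutation in between. It fell by 1.85 ± 0.22 in log2 terms between the lines (SE, limma adjusted p = 0.00297) and kept 20.9% of the rise. Its neighbour in name PTH1-2 (Os03g0150800) averaged 4.65 normalized counts in libraries labelled GSK2-RNAi oswrky53, 16.6 in libraries labelled GSK2-RNAi and 17.5 in the wild type, and the sharing of reads between the pair was not tested. Of 17 loci of phosphate transport and signalling tested, 3 fell between the lines and 0 rose, against 7.70% and 8.78% of all loci tested. The other two that fell were the transporter genes PHT1-8 (Os10g0444700), which fell by 0.74 on the log2 scale (limma adjusted p = 0.0491), and PHT4;6 (Os11g0186800), which fell by 0.94 (limma adjusted p = 0.0468). Both calls are marginal: that of PHT4;6 was lost without any 1 of the 8 libraries (adjusted p from 0.0556 to 0.129), and that of PHT1-8 without any 1 but GSK2-RNAi replicate 2 (adjusted p from 0.0597 to 0.118), its log2 difference being -0.48 without GSK2-RNAi replicate 3.

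HAK5 (Os01g0930400), a high-affinity potassium transporter, was at 278, 120 and 122 normalized counts in libraries labelled GSK2-RNAi oswrky53, at 282, 192 and 160 in libraries labelled GSK2-RNAi and at 20.2 and 42.6 in the wild type. The lines overlapped, with a log2 difference of -0.36 ± 0.41 (SE, 95% interval -1.30 to 0.57, limma adjusted p = 0.586). In the family list, written after the members' values were seen, 1 of 20 loci tested rose between the lines and 0 fell, near the 8.78% and 7.70% of all loci tested. That was HAK26 (Os08g0510300), which rose by 0.74 (limma adjusted p = 0.0337), a call lost with equal totals (adjusted p = 0.125) and without any 1 of the 6 libraries of the lines (adjusted p from 0.0634 to 0.0990).

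CYP734A4 (Os06g0600400) encodes a cytochrome P450 that inactivates brassinosteroids. It was at 51.5, 30.5 and 113 normalized counts in libraries labelled GSK2-RNAi oswrky53, at 210, 665 and 347 in libraries labelled GSK2-RNAi and at 20.2 and 21.8 in the wild type. The lines did not overlap, and the gene fell by 2.67 ± 0.53 in log2 terms between them (SE, limma adjusted p = 0.0139); leaving out GSK2-RNAi replicate 2 ended the call (adjusted p = 0.053). Among 13 brassinosteroid loci tested, 5 rose and 2 fell between the lines, against 8.78% and 7.70% of all loci tested. Beside CYP734A4 the one that fell was GSK2 itself, and those that rose were the synthesis genes CYP90B2, D2 and CYP90A4, the receptor gene BRI1 and the kinase gene GSK4, which was not called with equal totals (limma adjusted p = 0.106). CYP734A4 was the one member in the list.

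CML15 (Os05g0380900), a calmodulin-like calcium sensor whose name was also added after its values were seen, was at 323, 177 and 71.1 normalized counts in libraries labelled GSK2-RNAi oswrky53, at 208, 275 and 298 in libraries labelled GSK2-RNAi and at 65.3 and 59.1 in the wild type. Its lowest library of the line with the oswrky53 mutation stood just above the wild type. The log2 difference was -0.68 ± 0.47 (SE, limma adjusted p = 0.356).

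**Figure D3:**
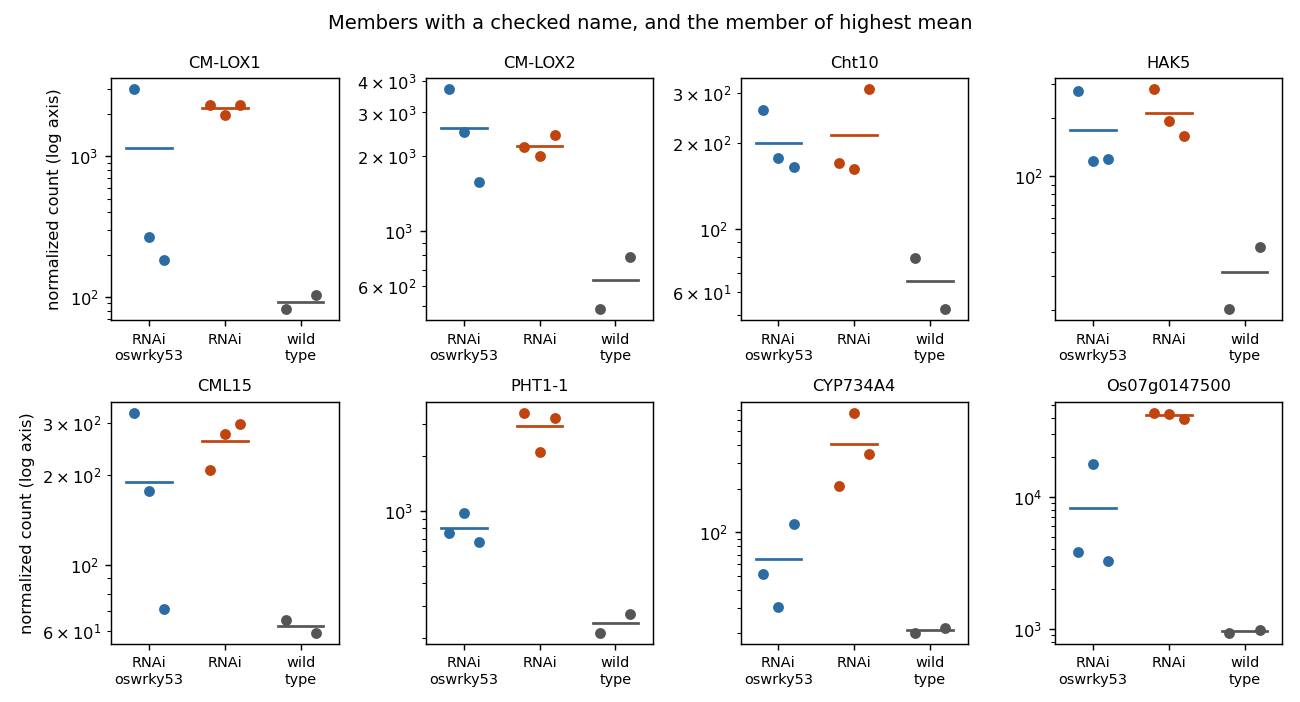
Normalized counts (log axis) of the 7 members with a checked name and of Os07g0147500, the member with the highest mean, where each point is 1 library and each bar the group mean (3 libraries labelled GSK2-RNAi oswrky53, 3 labelled GSK2-RNAi, 2 wild type). CM-LOX1 shows 1 library of the line with the oswrky53 mutation at 2997 and the others at 266 and 183, whereas PHT1-1 shows 3 separate groups.

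Abundance among the members was concentrated in a few loci. Os07g0147500, for which the sources used here give no name, averaged 8273 ± 8171 normalized counts in libraries labelled GSK2-RNAi oswrky53, 41640 ± 2427 in libraries labelled GSK2-RNAi (SD, n = 3 each) and 955 ± 30.0 in the wild type (SD, n = 2). Its libraries labelled GSK2-RNAi oswrky53 were at 3838, 17704 and 3279, so replicate 2 stood apart, and the fall of 2.78 ± 0.55 in log2 terms (SE, limma adjusted p = 0.014) was no longer called once GSK2-RNAi replicate 2 was left out (adjusted p = 0.0542). Os08g0351300 was at 1292, 2317 and 1187 normalized counts in libraries labelled GSK2-RNAi oswrky53, at 12898, 11460 and 18151 in libraries labelled GSK2-RNAi and at 651 and 285 in the wild type. It is among the 8 largest falls, by 3.19 ± 0.36 (SE, limma adjusted p = 0.00257). Os10g0180800 fell by 1.95 ± 0.45 (SE, limma adjusted p = 0.0226), which was no longer called when replicate 1 or 3 labelled GSK2-RNAi (adjusted p = 0.0717 or 0.0725) or replicate 3 labelled GSK2-RNAi oswrky53 (adjusted p = 0.0649) was left out. All members together held 0.225%, 0.249% and 0.144% of all normalized counts in libraries labelled GSK2-RNAi oswrky53, 0.669%, 0.606% and 0.719% in those labelled GSK2-RNAi, and 0.0384% and 0.0369% in wild type libraries.

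The members that fell furthest between the lines stayed above the wild type by selection but kept little of the rise. Os06g0591200 was at 117, 18.7 and 110 normalized counts in libraries labelled GSK2-RNAi oswrky53, at 1864, 1733 and 3093 in libraries labelled GSK2-RNAi and at 11.6 and 15.3 in the wild type. It was 27.2-fold lower in the line with the oswrky53 mutation, a log2 difference of -5.08 ± 0.63 (SE, limma adjusted p = 0.00328), and kept 3.09% of the rise, with replicate 2 close to the wild type. Os08g0395700, Os04g0371000, Os05g0593900, Os04g0468600, Os10g0442466 and Os05g0336000 completed the 8 largest falls with Os08g0351300. Their log2 differences lay between -3.84 and -3.14, with limma adjusted p from 0.000984 to 0.00558, and each kept between 4.96% and 8.41% of its rise. The highest ratio to the wild type in both lines belonged to Os06g0579100, named after its values were seen. It was at 904, 599 and 333 normalized counts in libraries labelled GSK2-RNAi oswrky53, at 3594, 2242 and 3634 in libraries labelled GSK2-RNAi and at 12.97 and 15.2 in the wild type. It fell by 2.44 ± 0.35 between the lines (SE, limma adjusted p = 0.00489) and still stood 43.5-fold above the wild type in the line with the oswrky53 mutation.

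At the other end were the loci whose lines lay together. Among the 40 members with a wild type mean of at least 50, the 8 with the nearest line means were Cht10, Os01g0757200, Os01g0802850, Os01g0975300, Os02g0134200, Os03g0321300, Os03g0764100 and Os06g0318800. Their log2 differences were between -0.37 and 0.06, and 0 of the 8 was called. Os01g0975300 was the tightest of them, at 4165, 6417 and 3350 normalized counts in libraries labelled GSK2-RNAi oswrky53, at 5716, 4834 and 5565 in libraries labelled GSK2-RNAi and at 1225 and 1231 in the wild type. Its log2 difference was -0.26 ± 0.22 (SE, 95% interval -0.76 to 0.24, limma adjusted p = 0.453). For Os03g0764100 the near-equal means hide a wide spread: it was at 3482, 1079 and 669 in libraries labelled GSK2-RNAi oswrky53, at 1247, 1858 and 2361 in libraries labelled GSK2-RNAi and at 650 and 391 in the wild type. Replicate 3 of the line with the oswrky53 mutation was level with the wild type.

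In 2 members all libraries labelled GSK2-RNAi oswrky53 lay above all those labelled GSK2-RNAi. Os01g0537250 was at 7350, 6018 and 5499 normalized counts in libraries labelled GSK2-RNAi oswrky53, at 4339, 4020 and 5291 in libraries labelled GSK2-RNAi and at 822 and 834 in the wild type, a log2 difference of 0.47 ± 0.15 between the lines (SE, limma adjusted p = 0.069). Os12g0117700, named after its values were seen, was at 3555, 1763 and 1281 in libraries labelled GSK2-RNAi oswrky53, at 556, 1026 and 588 in libraries labelled GSK2-RNAi and at 220 and 64.8 in the wild type. Its log2 difference of 1.53 ± 0.51 was the highest among the members and was not called (SE, limma adjusted p = 0.076), but it passed the threshold with the 6 libraries of the lines alone (adjusted p = 0.0366) and without wild type replicate 1 or 3 (0.0365 and 0.0364).

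**Figure D4:**
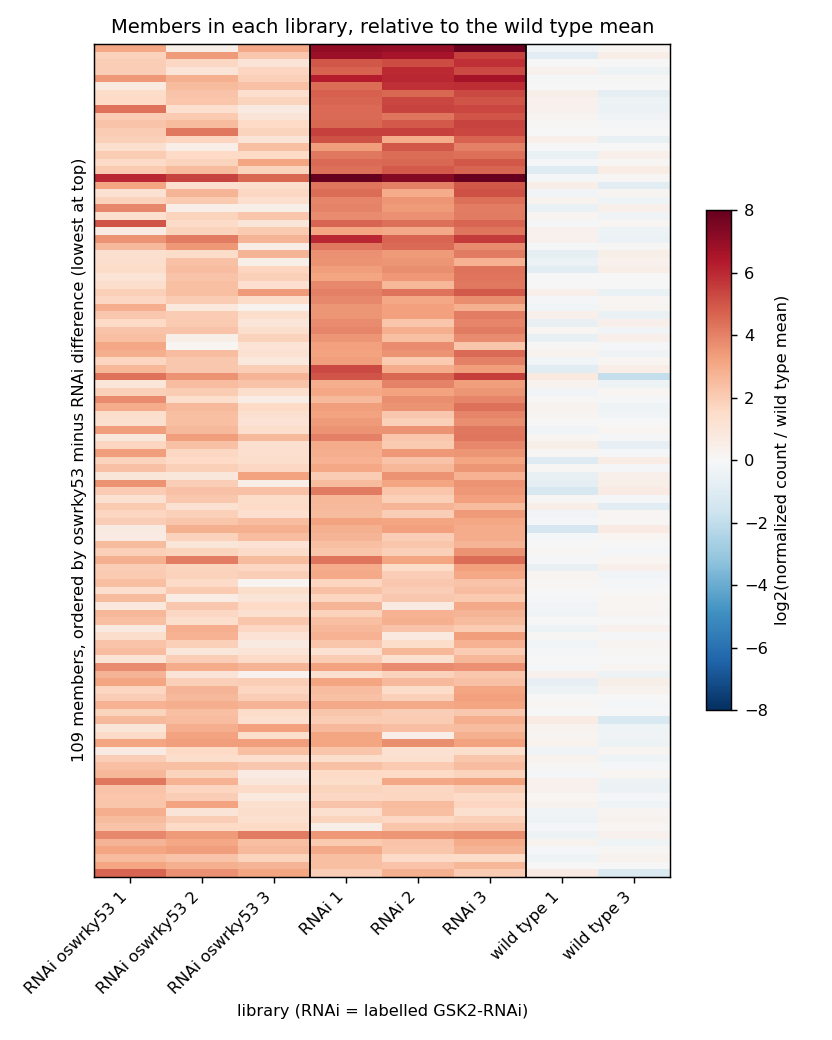
Colour shows log2 of the normalized count over the wild type mean for each of the 109 members (rows) in each of the 8 libraries (columns), with members ordered by the difference between the lines. Members at the top are far redder in libraries labelled GSK2-RNAi than in libraries labelled GSK2-RNAi oswrky53, and those at the bottom are alike or redder in the line with the oswrky53 mutation; single libraries stand apart in many rows.

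Libraries of 1 genotype differed more in these loci than in most. The median coefficient of variation was 44.4% within libraries labelled GSK2-RNAi oswrky53 and 33.0% within libraries labelled GSK2-RNAi, against 16.0% and 11.9% in the same groups over 20757 tested loci of at least the lowest member's mean. Loci that met the condition in only 1 line also varied, at 37.4% within libraries labelled GSK2-RNAi oswrky53 for the 52 that met it in that line alone and at 27.1% within libraries labelled GSK2-RNAi for the 861 that met it there alone. The libraries had an order over the members. GSK2-RNAi oswrky53 replicate 3 was the lowest of its group in 66 members (60.6%, against 31.7% of all loci tested), and GSK2-RNAi replicate 3 was the highest of its group in 69 (63.3%, against 37.0%). Among the 52 loci that met the condition in libraries labelled GSK2-RNAi oswrky53 alone, the same libraries held these places in 40.4% (lowest) and 28.8% (highest), and among the 861 that met it in libraries labelled GSK2-RNAi alone in 38.2% and 48.4%. The differences between these lists were not tested.

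GSK2-RNAi oswrky53 replicate 1 carried some of the members by itself. In 13 members it stood at 3 times or more the mean of the other two libraries of its group, 11.9% of the members, against 0.593% of 20066 tested loci of at least the lowest member's mean in that line. The share was 5.77% of the 52 loci that met the condition in that line alone and 2.90% of the 861 that met it in libraries labelled GSK2-RNAi alone. In 9 of the 13 it lay above the mean of the libraries labelled GSK2-RNAi. In 1 of the 13 the other two libraries alone averaged at least 3 times the wild type, so the selection of the remaining ones rests on that library. CM-LOX1 was the widest of them. Os01g0326300 was at 257, 25.2 and 23.8 normalized counts in libraries labelled GSK2-RNAi oswrky53, at 275, 183 and 301 in libraries labelled GSK2-RNAi and at 12.3 and 22.8 in the wild type. Its log2 difference between the lines was -2.17 and not called, and without replicate 1 it was -3.28 (limma adjusted p = 0.00396). Os04g0610400 was at 1289, 469 and 130 in libraries labelled GSK2-RNAi oswrky53, at 190, 588 and 632 in libraries labelled GSK2-RNAi and at 85.6 and 51.4 in the wild type; both were named after their values were seen. WRKY53 itself was highest in the same library, as given above, and its part in these values was not tested. Without that library 83 of the 109 members still met the selection, without replicate 2 of the line 87, and without replicate 3 of it 101. Asked of each library singly, 29 members were at least 3 times the wild type mean in all 6 libraries of the lines, 32 in all 3 labelled GSK2-RNAi oswrky53 and 93 in all 3 labelled GSK2-RNAi.

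**Figure D5:**
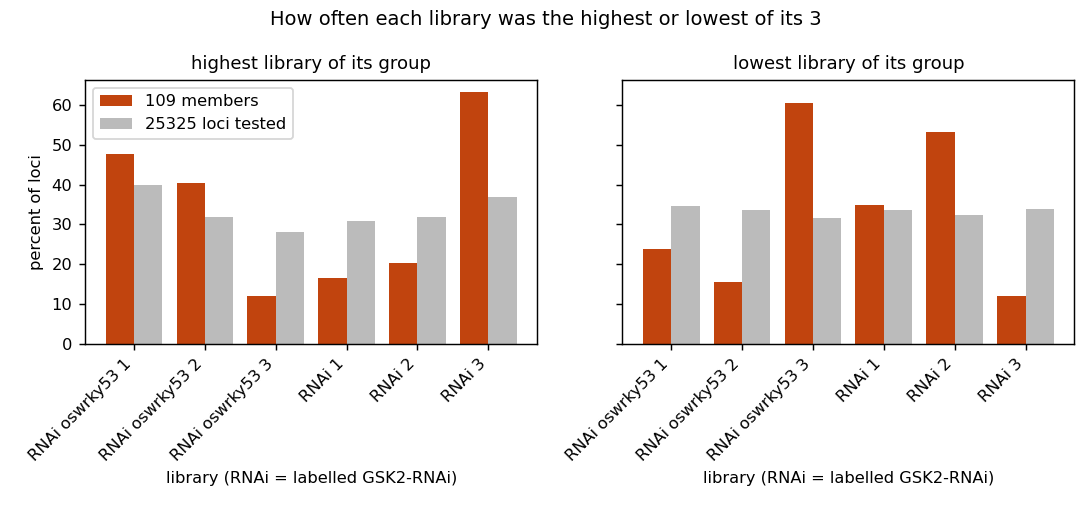
Bars give the percent of the 109 members (red) and of the 25325 loci tested (grey) for which a library was the highest (left) or the lowest (right) of the 3 libraries of its group. GSK2-RNAi replicate 3 was the highest in 63.3% of members and GSK2-RNAi oswrky53 replicate 3 the lowest in 60.6%.

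Members were spread over every chromosome, from 1 on chromosome 11 to 23 on chromosome 1. As a share of the loci with a wild type mean of at least 10, they ran from 0.0779% on chromosome 11 to 0.917% on chromosome 10. Among the members 13 lay within 3 tested loci of another, in 7 pairs, 6 of which are direct neighbours among tested loci. How often other loci lie this near each other was not counted, so no clustering is read from these pairs. A run of 3 on chromosome 4, Os04g0468000, Os04g0468600 and Os04g0469000, had lower means in libraries labelled GSK2-RNAi oswrky53 than in libraries labelled GSK2-RNAi, and 2 of the 3 were called. Os04g0468000 was at 133, 116 and 74.0 normalized counts in libraries labelled GSK2-RNAi oswrky53, at 1206, 277 and 960 in libraries labelled GSK2-RNAi and at 48.1 and 23.6 in the wild type. It fell by 2.70 ± 0.54 (SE, limma adjusted p = 0.015; 0.0546 without GSK2-RNAi replicate 3 and 0.0522 without GSK2-RNAi oswrky53 replicate 3). Os04g0468600 fell by 3.56 ± 0.35 (SE, limma adjusted p = 0.00168), and Os04g0469000 had a log2 difference of -1.59 that was not called (limma adjusted p = 0.0625). It was called lower with equal totals (-1.90, adjusted p = 0.0214) and without GSK2-RNAi replicate 2 (-2.13, adjusted p = 0.0278). Another adjacent pair of the chromosome, Os04g0370900 and Os04g0371000, also fell, with log2 differences of -2.90 and -3.75 (limma adjusted p = 0.00213 and 0.000984).

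Other neighbours parted. Os08g0395500 was at 205, 204 and 174 normalized counts in libraries labelled GSK2-RNAi oswrky53, at 194, 168 and 212 in libraries labelled GSK2-RNAi and at 41.3 and 36.1 in the wild type. The adjacent Os08g0395700 was at 130, 374 and 156 in libraries labelled GSK2-RNAi oswrky53, at 4141, 3466 and 1565 in libraries labelled GSK2-RNAi and at 18.8 and 52.2 in the wild type. The first differed between the lines by 0.03 ± 0.17 in log2 terms (SE, limma adjusted p = 0.934) and the second fell by 3.84 ± 0.53 (SE, limma adjusted p = 0.00461); the difference between the neighbours was not tested. In the remaining pairs, Os10g0503250 with Os10g0503300 and Os01g0713200 with Os01g0714600, 0 of the 4 loci was called, with log2 differences from -1.34 to -0.32. Of these Os01g0714600 was called lower with equal totals (-1.65, limma adjusted p = 0.0278) and without GSK2-RNAi oswrky53 replicate 1 (-1.79, adjusted p = 0.0280).

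Transcript rows within a locus were not used by the selection. Of the 109 members 14 have 2 or more rows, and in 12 of these the same transcript led in all 3 groups. Os10g0180800 was one of the exceptions. Its transcript 01 held 54.5% ± 8.69 of the locus in libraries labelled GSK2-RNAi oswrky53, 60.7% ± 5.05 in libraries labelled GSK2-RNAi (SD, n = 3 each) and 29.8% ± 4.52 in the wild type (SD, n = 2). Transcript 02 of the same locus held 20.5% ± 1.21 in libraries labelled GSK2-RNAi oswrky53, 17.2% ± 2.38 in libraries labelled GSK2-RNAi and 50.7% ± 7.04 in the wild type. The wild type shares rest on locus sums of 135 and 74.7 normalized counts, and neither transcript's share in any library of the lines overlapped the wild type. Os04g0468600, the other exception, has 5 rows, and its leading transcript in the wild type changed between the libraries, where the locus stood at 31.9 and 38.1. For Os03g0838400, transcript 02 was listed at 0 in all 6 libraries of the lines, where transcript 01 held the whole value, and at 7.95 and 10.4 in the wild type. Shares are estimates that split reads between overlapping transcripts, and no test was made of them.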

How the data were processed

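Libraries were made from flag leaf RNA with an Illumina TruSeq kit, per the labels' protocols. The deposited values, a non-negative signal, are normalized counts in 1 table of 38335 transcript rows. The tools DESeq2 1.26.0 and kallisto 0.46.1 and the genome build IRGSP-1.0 stand in the submitters' processing notes without a role, and how values were normalized is not given in the sources used here. Between 66.0% and 98.7% of low values lay within 0.1 of a multiple of the step taken as 1 read, so no reads were recovered and no count model was used. Precision is limited by depth and by 2 or 3 libraries a group.

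Rows were summed per locus. The 25325 loci that reached 10 in 2 or more libraries were tested on log2(value + 1), so a log2 difference understates the change of low loci, with limma 3.58.1 (R 4.3.3; trend, 8 libraries, 3 group means) and Benjamini-Hochberg adjustment over all loci tested. On simulated data the fit's median estimates lay near the changes put in, and few unchanged loci were called. The share of those changes that was called is not given here. Folds are ratios of group means. Other steps used Python 3.11.15, numpy 2.4.6, pandas 2.3.3 and matplotlib 3.10.9.

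The members and gene lists were chosen with earlier results of these data known. The table holds identifiers only. Of 135 pairs of name and identifier written by hand, 134 matched the chromosome and order of the symbol in the reference table (assembly ASM3414082v1), and 128 are in the table; the order cannot tell apart neighbouring copies. Builds differ, so no coordinates are given, and sequences and promoter motifs were not analysed here.

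Named by rule were members with a checked name, the 8 of highest mean, the 8 largest called rises and falls between the lines, the 8 with nearest line means among wild type means of at least 50, neighbouring members, and loci at the threshold. Alternatives were other pseudocounts, filters, scalings, the lines' 6 libraries alone, no trend, a replicate block and each library left out. Replicate numbers were not taken as pairs (see the closing section).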

Additional observations from a re-analysis of the deposited data

How the results depend on the processing

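Limits: the groups hold 2 or 3 libraries, the wild type means of 28 members are under 20, and both lines chose the members. The number of loci meeting the selection was 392 with a fold of at least 2, 51 with at least 4, 174 and 40 with wild type means of at least 5 and 50, and 109 to 239 with 1 library left out. Of the 109 members, 104 met it with equal totals and 77 with quantile normalization.

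Members lower in the libraries labelled GSK2-RNAi oswrky53 numbered 38, 58 with equal totals and 23 to 44 with 1 library left out; 20 of the 38 were called in every alternative. Members higher numbered 0, 1 with the lines' 6 libraries alone and 0 to 1 with 1 library left out. Over all loci 4172 changed between the lines, of which 53.3% were higher; this was 7338 with equal totals (15.6% higher) and 1575 to 4354 with 1 library left out.

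With the replicate block the count over all loci was 2621 and that of members lower was 32. Same-numbered libraries deviated together with correlations of -0.21 to 0.15 and different-numbered ones with -0.32 to 0.32, so the numbers were not taken as pairs. So few values cannot show that same-numbered libraries shared no batch.

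The log2 difference to the wild type with 1 library left out was 2.90 to 2.98 for GSK2 in the libraries labelled GSK2-RNAi and 0.72 to 0.97 in those labelled GSK2-RNAi oswrky53. For WRKY53 it was 0.99 to 1.30 in those labelled GSK2-RNAi, where leaving out wild type replicate 3 ended the call (adjusted p = 0.0819), and 0.92 to 1.40 in those labelled GSK2-RNAi oswrky53.

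Differences between the lines reversed in 20 members in at least 1 alternative, 11 with equal totals and 18 with 1 library left out, and 0 of the 20 was called. Among the 10 of them named by rule, those with equal totals were Os01g0802850 (-0.25), Os02g0134200 (-0.25), Os08g0395500 (-0.29) and CM-LOX2 (-0.16). With 1 library left out those named by rule were Cht10 (-0.26 to 0.24), Os01g0757200 (-0.58 to 0.58), Os01g0802850 (-0.41 to 0.53), Os02g0134200 (-0.22 to 0.49), Os03g0321300 (-0.50 to 0.38), Os03g0764100 (-1.05 to 0.14), Os06g0318800 (-0.42 to 0.21), Os08g0395500 (-0.064 to 0.10), CM-LOX2 (-0.15 to 0.47) and Os10g0503250 (-0.63 to 0.068). Os04g0610400 was -0.26 with equal totals and -0.74 to -0.01 where leaving out a library reversed it. The cause was not tested.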

Other observations

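The loci listed beside Os07g0147500, the most abundant member, did not meet the selection. Before it, Os07g0146700 was listed at 0 in every library, and Os07g0146800 averaged 1.07 normalized counts in libraries labelled GSK2-RNAi oswrky53, 7.86 in libraries labelled GSK2-RNAi and 3.16 in the wild type. Os07g0147550 was at 4.46, 9.99 and 3.01 normalized counts in libraries labelled GSK2-RNAi oswrky53, at 51.9, 35.7 and 37.5 in libraries labelled GSK2-RNAi, and at 1.47 and 0 in the wild type, where its mean is under the minimum of 10. Os07g0147600 was at 12.0, 39.1 and 25.3 in libraries labelled GSK2-RNAi oswrky53, at 72.4, 48.3 and 24.2 in libraries labelled GSK2-RNAi, and at 9.36 and 11.4 in the wild type. Sharing of reads with the abundant neighbour was not tested.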
